A study of Mus musculus with 12 samples.

Results

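The transcripts of 8 cytokine and cytokine receptor genes through which dendritic cells shape T cell responses were followed across 6 groups of mouse splenic dendritic cells. The genes were Il12a, Il12b, Il6, Il10, Il15, Il15ra, Tgfb1 and Ebi3. Every probe set that the platform annotation assigned to exactly 1 symbol, one of these 8, was taken. This gave 10 of the 12488 probe sets on the array, 2 of them for Il10, 2 for Ebi3 and 1 for each of the other genes. One of the Il10 probe sets is a control probe set of the array.

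Dendritic cells present antigen to T cells, and the cytokines they release at that moment steer what the T cell becomes. IL-12, a heterodimer of the p35 chain (Il12a) and the p40 chain (Il12b), drives T helper 1 responses, and p40 also pairs with p19 to form IL-23. The Ebi3 chain pairs with p28 to form IL-27 and with p35 to form IL-35. IL-6 and TGF-beta1 together favour T helper 17 cells, TGF-beta1 alone favours regulatory T cells, and IL-10 restrains the dendritic cell itself. IL-15 is carried to the cell surface by the IL-15 receptor alpha chain and sustains NK cells and memory CD8 T cells. In mouse spleen, CD8+ dendritic cells are known as the main producers of IL-12.

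All cells were sorted from mouse spleen for high CD11c. The groups were CD8+, CD4+ and CD4- CD8- (double-negative, DN) cells incubated for 2 h in medium at 37 °C (cultured), and CD8+, CD4+ and DN cells processed at isolation (fresh). Each group had 2 arrays, numbered in the sample titles as experiments 1 and 2, and the labels name no strain, age or added stimulus. Whether the experiments used separate animals is not stated, and the p-values therefore cover the spread among 12 arrays, part of which may be technical. One label of fresh CD8+ experiment 1 calls the cells CD4 positive, whereas the others say CD8+. The intensities of Cd8a (1210) and Cd4 (92.0) on that array went with CD8+.

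The deposited values were intensities that the authors had scaled globally, with a trimmed mean of 150 on all 12 arrays. The noise of an array, the root mean square of its negative values, was 107.9 on cultured CD4+ experiment 1 and 26.2 to 82.5 on the others. A detection floor of 91.4, which is 2 times the median noise, was used throughout. Gapdh was read by control probe sets at both ends of its transcript, and the ratio of the 3' end over the 5' end, which rises as RNA breaks down, was 1.97 on cultured CD4+ experiment 1 and 1.34 on cultured DN experiment 1. It was 2.55 on fresh CD8+ experiment 1 and 0.890 to 1.04 on the other 9 arrays. The same ratio for beta-actin was 1.16, 0.919 and 0.908 on these 3 arrays, in the order named. Its highest value, 1.28, was on cultured CD4+ experiment 2. The 3 arrays are thus singled out by Gapdh alone, and whether their RNA was broken was not tested. Of 8 dendritic cell markers on the array, 8 were above the floor on at least 1 array. Of 7 T cell markers, Cd3e, Cd3d, Cd3g, Cd28, Thy1 and Cd6 never were. Of 8 B cell markers only Cr2 never was, and of 11 macrophage and monocyte markers only Marco and Mertk never were. The purity of the sorted cells was not tested.

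Ebi3 (probe set 93608_at) and Tgfb1 were above the floor on all 12 arrays. Il12b was above it on 6 arrays, Il6 on 4 and Il15 on 2. Another 4 probe sets stayed near background, meaning that at most 1 array was above the floor. These were Il12a with 0 such arrays, Il10 (100319_at) with 1, Il15ra with 1 and the second Ebi3 probe set (162357_at) with 0. The Il10 control probe set was above the floor on 2 arrays and, like all control probe sets, was not tested. Of the whole table, 6159 probe sets were above the floor on at least 2 arrays and were tested together with limma, among them 5 of these cytokines. Il6 passed that filter through cultured arrays only and Il15 through the cultured CD8+ arrays only, so their passing it says nothing about culture or, for Il15, about subsets.

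The 250 bases upstream of the annotated start are shown for the 4 genes whose transcripts were most widely detected. Of these, Il6, Il12b and Ebi3 were raised on the cultured arrays of experiment 1, and Tgfb1 was lower after culture. The sequences are those of RefSeq on GRCm38.p6, plus strand, 5′ to 3′. Capitals mark matches on either strand to motifs of AP-1 (TGANTCA), C/EBP (TTGCNNAA), Sp1 (GGGCGG), NF-kB and the interferon regulatory factors, chosen with the sequences already seen. The NF-kB motif was GGG, 2 bases of any kind, TT, 1 base of any kind and CC. The interferon regulatory factor motif was GAAA on either side of 2 bases of any kind. Of the 8 genes, 6 had an entry in the promoter table.
Il6 (chr5:30012864-30013113): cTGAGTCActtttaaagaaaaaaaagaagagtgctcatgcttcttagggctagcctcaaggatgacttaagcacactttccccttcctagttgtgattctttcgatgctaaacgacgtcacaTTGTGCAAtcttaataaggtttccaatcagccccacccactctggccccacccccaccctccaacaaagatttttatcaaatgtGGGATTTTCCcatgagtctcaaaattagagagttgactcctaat
Ebi3 (chr17:55952373-55952622): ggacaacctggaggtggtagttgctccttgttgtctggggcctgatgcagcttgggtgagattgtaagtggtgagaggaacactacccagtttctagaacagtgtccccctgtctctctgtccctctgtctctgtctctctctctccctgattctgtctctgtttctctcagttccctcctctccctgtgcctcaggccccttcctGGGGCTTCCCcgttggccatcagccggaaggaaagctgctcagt
Il12b (chr11:44399813-44400062): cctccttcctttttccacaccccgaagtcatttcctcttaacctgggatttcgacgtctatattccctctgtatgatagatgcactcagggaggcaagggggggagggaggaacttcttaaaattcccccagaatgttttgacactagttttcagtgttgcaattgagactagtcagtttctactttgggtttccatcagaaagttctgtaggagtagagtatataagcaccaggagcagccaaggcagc
Tgfb1 (chr7:25686752-25687001): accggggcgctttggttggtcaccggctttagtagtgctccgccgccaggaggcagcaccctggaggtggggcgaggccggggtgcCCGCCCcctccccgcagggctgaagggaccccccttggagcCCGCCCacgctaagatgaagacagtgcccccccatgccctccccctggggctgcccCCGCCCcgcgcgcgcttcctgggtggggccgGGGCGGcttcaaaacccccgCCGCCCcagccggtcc
The Il6 and Ebi3 windows each held 1 match to the NF-kB motif, in both cases at positions -44 to -35 from the start. Such a match occurred in 4.11% of 32851 mouse promoter windows of the same length. Il6 also held an AP-1 match at -249 to -243, a motif found in 6.75% of windows, and a C/EBP match at -128 to -121, found in 9.56%. The Il12b window held 0 matches to the 5 motifs, which says only that these letters were not in it. The Tgfb1 window was 75.2% G and C and held 5 Sp1 matches, a motif found in 32.7% of windows. The interferon regulatory factor motif, found in 2.98% of windows, matched none of these 4. Since the motifs were chosen with the sequences already seen, the shares of windows do not measure how surprising a match is. A match is a description of the letters, and the arrays measured no binding.

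The first comparison asked whether a short incubation of the sorted cells went with a change in these transcripts. Averaged over the 3 subsets, Il6 and Il12b were higher after culture and Tgfb1 was lower. That made 2 higher and 1 lower of the 5 tested probe sets at an adjusted p under 0.05 (limma, Benjamini-Hochberg over the whole table). The Il12b call was lost in 16 of the alternative runs given below, whereas those of Il6 and Tgfb1 held in every one. The background was high: 39.3% of all tested probe sets were called in this comparison, 17% higher and 22.3% lower. The median log2 difference over all tested probe sets was -0.0165. In sorted bulk samples, fewer expressing cells and less RNA per cell cannot be told apart.

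**Figure D1:**
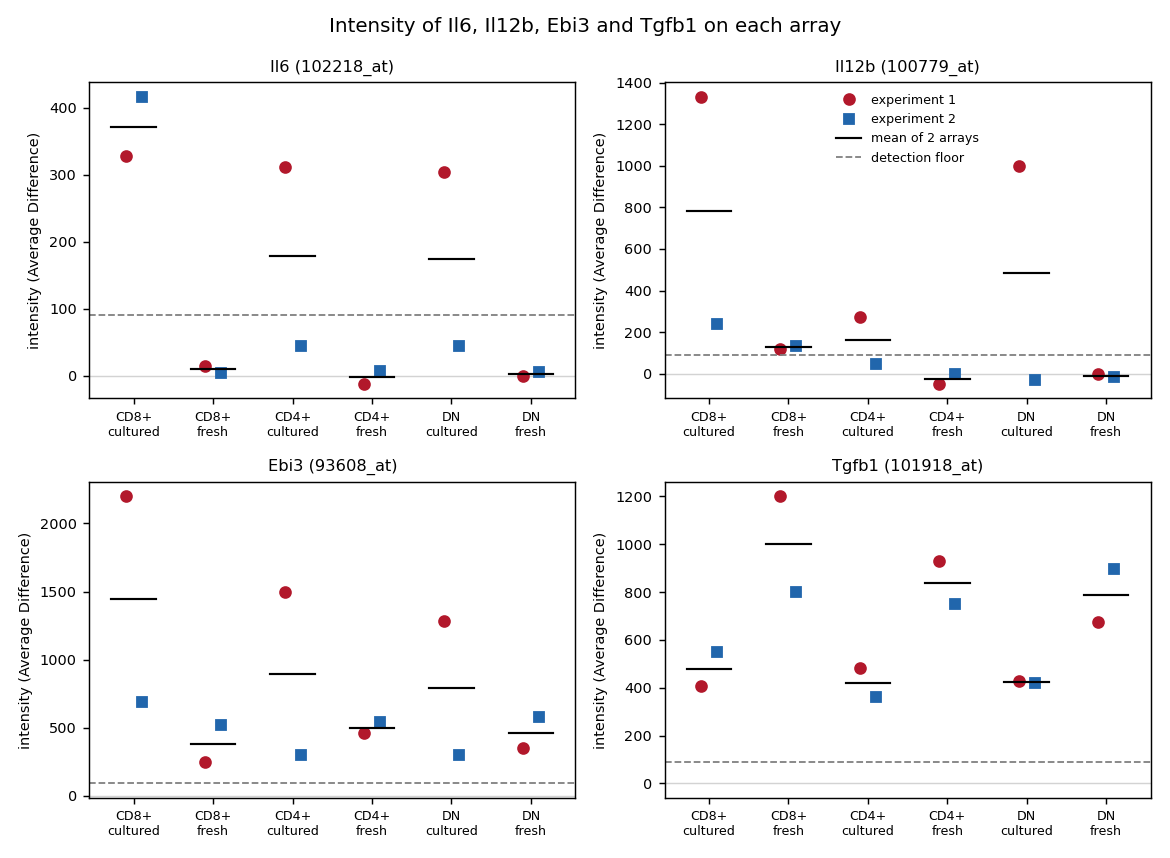
Intensity of the Il6, Il12b, Ebi3 and Tgfb1 probe sets (Average Difference) on each of the 12 arrays, with the cultured group left of the fresh group in each subset, a point for each experiment and the detection floor of 91.4 as a line. All 6 cultured arrays lie above all 6 fresh arrays for Il6 and below them for Tgfb1, whereas Il12b and Ebi3 are highest on the cultured arrays of experiment 1.

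Il6 encodes interleukin-6, a signal of acute inflammation. Its probe set (102218_at, gene at chr5:30013114-30019975) read 327 and 416 in cultured CD8+ cells in experiments 1 and 2, against 15.4 and 3.9 in fresh CD8+ cells. Cultured CD4+ cells gave 311 and 45.3, against -11.6 and 7.0 in fresh CD4+ cells. Cultured DN cells gave 305 and 45.3, against -0.5 and 6.4 in fresh DN cells. All 6 cultured arrays lay above all 6 fresh ones, as they did for 473 tested probe sets, 7.68%. No fresh array reached the floor. In experiment 1 all 3 cultured subsets did, and in experiment 2 the CD8+ cells alone.

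The intensity of Il6 averaged 241.7 ± 157.3 in cultured and 3.43 ± 9.02 in fresh cells (SD, n = 6 arrays each). On the log2 scale the mean culture effect was 2.91 ± 0.50 (SE), with a limma adjusted p of 0.00119. Since fresh cells were below the floor, the measured bound was at least 1.91-fold higher in cultured cells over the 3 subsets. An exact permutation of fresh and cultured within each subset gave a two-sided p of 0.00926, the smallest that the 216 arrangements allow. The call held in each of the 12 fits without 1 array, with limma adjusted p of 0.000166 to 0.00573, and with no filter on low values (0.00238).

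By subset, Il6 passed in CD8+ cells, where culture gave 3.72 ± 0.87 (SE) on the log2 scale, at least 3.83-fold, with a limma adjusted p of 0.0257. It was 1 of the 5 tested cytokine probe sets called there, against 8.13% of all tested probe sets (4.01% higher). Leaving out any one of the 4 CD8+ arrays raised the adjusted p to between 0.0852 and 0.143, and raising low values to the floor before plain log2 gave 0.0629. In CD4+ cells the limma difference was 2.59, at least 1.35-fold, with an adjusted p of 0.0603, which became 0.0344 with the experiment number as a replicate block. In DN cells it was 2.41, at least 1.34-fold, with an adjusted p of 0.104. The subsets' culture effects on Il6 differed by 1.13 for CD8+ minus CD4+ and by 1.31 for CD8+ minus DN, with limma adjusted p of 0.784 and 0.998.

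Within each experiment Il6 passed too, with limma log2 differences of 3.76 (adjusted p 0.00131) in experiment 1 and 2.06 (adjusted p 0.0241) in experiment 2. In experiment 2 the CD8+ pair differed by 4.07, and the CD4+ and DN pairs by 1.04 and 1.06. The CD4+ and DN pairs were below the floor in both states, so no fold can be given for them. The difference between the experiments was 1.70 ± 0.78 (SE), with a limma adjusted p of 0.790. Each experiment had 1 array per subset and state, so here and for the cytokines below the 3 subsets stood in for replicates. The p-values within and between experiments therefore do not measure how well the culture effect repeats. Without the 3 cultured arrays of experiment 1, which leaves 1 array in each cultured group, the limma mean effect on Il6 was 2.13. In that fit the spread comes from the fresh arrays alone, on which Il6 was below the floor.

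Il12b encodes the p40 chain shared by IL-12 and IL-23. Its probe set (100779_at, gene at chr11:44400063-44414677) read 1332 and 237 in cultured CD8+ cells, against 119.9 and 134.5 in fresh CD8+ cells. Cultured CD4+ cells gave 272 and 47.5, against -48.0 and 0.2 in fresh CD4+ cells. Cultured DN cells gave 999.6 and -29.3, against -3.6 and -17.7 in fresh DN cells. The cultured arrays of experiment 1 were thus all above the floor. In experiment 2 the cultured DN array was below the fresh one, and of the cultured arrays that of CD8+ cells alone passed the floor. Fresh CD8+ cells were the one fresh group above the floor, on both arrays.

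Il12b averaged 476.6 ± 555.8 in cultured and 30.9 ± 76.7 in fresh cells (SD, n = 6 arrays each), and it was higher in culture in 5 of 6 same-numbered pairs. The limma mean culture effect was 2.61 ± 0.92 (SE) on the log2 scale, with an adjusted p of 0.0428. The exact permutation within subsets gave a two-sided p of 0.0278. Leaving out any one of 9 of the 12 arrays ended the call. It stayed without experiment 2 of cultured CD8+, CD4+ or DN cells, and over the 12 fits the limma adjusted p ran from 0.000981 to 0.126. The mean effect was 4.63 in experiment 1 (limma adjusted p 0.00238) and 0.59 in experiment 2 (adjusted p 0.575), and the difference of 4.04 ± 1.04 (SE) had an adjusted p of 0.478. Without the 3 cultured arrays of experiment 1 the limma mean effect was 0.77, with an adjusted p of 0.223.

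In no single subset did Il12b pass, with limma log2 differences of 2.11 in CD8+ cells (adjusted p 0.480), 3.11 in CD4+ cells (at least 1.29-fold, adjusted p 0.182) and 2.62 in DN cells (at least 1.155-fold, adjusted p 0.319). In DN cells the sign rested on 1 array, since the Il12b difference was -0.54 without cultured DN experiment 1 and 5.78 without cultured DN experiment 2, the limma adjusted p being 0.869 and 0.0139.

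Ebi3 encodes the chain shared by IL-27 and IL-35. Its first probe set (93608_at, gene at chr17:55952623-55957022) read 2198 and 686 in cultured CD8+ cells, against 249.6 and 519 in fresh CD8+ cells. Cultured CD4+ cells gave 1494 and 300.2, against 461 and 540.3 in fresh CD4+ cells. Cultured DN cells gave 1287 and 301.0, against 349 and 578 in fresh DN cells. In experiment 1 each cultured subset was far above its fresh counterpart. In experiment 2, cultured CD4+ and DN cells lay below theirs and cultured CD8+ cells above.

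Pooled over the experiments, Ebi3 averaged 1044 ± 752 in cultured and 449.5 ± 126.2 in fresh cells (SD, n = 6 arrays each). The limma mean culture effect was 0.89 ± 0.48 (SE), with an adjusted p of 0.160, and the exact permutation within subsets gave a two-sided p of 0.176. Leaving out cultured CD4+ experiment 2 brought the limma adjusted p to 0.0296. Within experiment 1 the effect was 2.23 ± 0.24 (limma adjusted p 0.000219), and within experiment 2 it was -0.46 ± 0.24 (adjusted p 0.176). The background of calls was 30.3% of tested probe sets in experiment 1 and 25.9% in experiment 2.

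The difference in culture effect between the experiments, a comparison made after the values had been seen, was 2.69 ± 0.33 (SE) for Ebi3 with a limma adjusted p of 0.0435. It was passed by 2 of the 6159 tested probe sets, 0.0325%. The other was Nfkbiz, which encodes an atypical inhibitor-of-NF-kB protein known in mouse macrophages to be needed for Il6 and Il12b induction. Nfkbiz read 1406, 2136 and 1688 in cultured CD8+, CD4+ and DN cells of experiment 1 and 279.9, 309.7 and 264.6 in those of experiment 2, against 361.9 to 646.4 on the 6 fresh arrays. The Ebi3 call was lost in each of the 12 fits without 1 array, in which the limma adjusted p was 0.0744 to 0.222. In those fits the difference was between 2.50 and 2.91, and 0 to 4 probe sets were called. Without the 3 arrays of raised Gapdh ratio, which leaves cultured CD8+ cells as the one cultured group of experiment 1, the difference was 2.15. In that fit the cultured arrays add nothing to the spread, so no call is drawn from it.

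The 3 cultured arrays of experiment 1 lay above the 3 of experiment 2 for Ebi3 and Il12b, and overlapped them for Il6, Tgfb1 and Il15. The same separation occurred in 686 tested probe sets, 11.1%. Summed markers of other cells also separated by experiment. Of 10 such lists, 6 were higher on all 3 cultured arrays of experiment 1 than on all 3 of experiment 2 (B cell, neutrophil, red cell, plasmacytoid, stromal and basophil), while the T cell, NK cell, plasma cell and macrophage lists overlapped. On the fresh arrays 5 of the 6 separated in the same way, the B cell list being the exception. The summed intensity of 8 B cell markers was 2812 to 4130 on the cultured arrays of experiment 1 and 1568 to 1752 on those of experiment 2, against 2963 to 4253 on fresh arrays of experiment 1 and 1852 to 4683 on those of experiment 2, with Cr2 never above the floor. For 3 red cell markers the sums were 781.5 to 2512 and 165.0 to 296.7, against 720.1 to 830.0 and 165.3 to 342.7 on the fresh arrays, with Alas2 and Epor never above the floor. For 8 neutrophil markers they were 389.0 to 762.5 and 167.4 to 343.4, against 236.9 to 380.7 and 100.9 to 167.3 on the fresh arrays, with S100a9, Ltf, Mpo, Ngp and Cxcr2 never above the floor. The plasmacytoid, stromal and basophil sums stayed at 1005 or less, and Klk1, Col3a1, Sparc, Cdh5, Mcpt8, Cpa3 and Fcer1a were never above the floor. Noise alone can raise such sums where the markers are dim. In each group the noise was higher in experiment 1 than in experiment 2. In cultured CD8+, CD4+ and DN cells it was 60.2, 107.9 and 82.5 in experiment 1, against 46.0, 42.3 and 61.4 in experiment 2. The part of noise in these sums, and that of other cells in the Ebi3 and Il12b values, was not tested. The Gapdh ratio was raised on cultured CD4+ and DN experiment 1, whereas it was 0.916 on cultured CD8+ experiment 1, the array with the highest Il12b and the highest Ebi3 intensity.

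**Figure D2:**
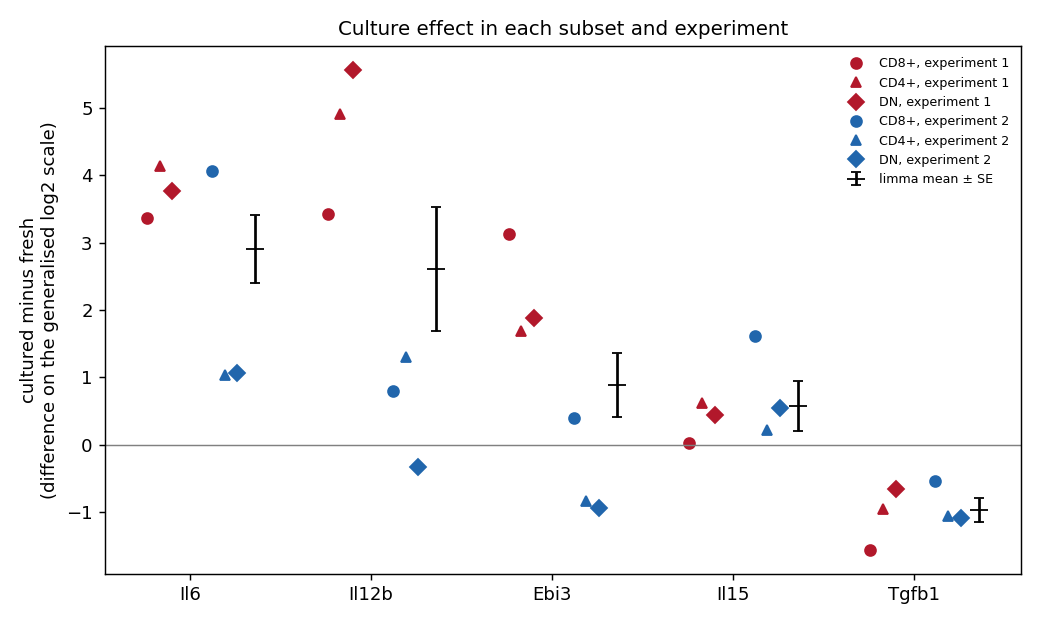
Log2 difference, cultured minus fresh, of the 5 tested cytokine probe sets in each subset and experiment, with the limma mean culture effect and its standard error. The mean effects are 2.91 for Il6, 2.61 for Il12b, 0.89 for Ebi3, 0.58 for Il15 and -0.97 for Tgfb1, and the experiments lie farthest apart for Il12b and Ebi3.

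Tgfb1 encodes TGF-beta1, which is secreted in a latent complex. Its probe set (101918_at, gene at chr7:25687002-25705077) read 406.5 and 549 in cultured CD8+ cells, against 1200.2 and 800.5 in fresh CD8+ cells. Cultured CD4+ cells gave 481 and 359.9, against 931 and 749 in fresh CD4+ cells. Cultured DN cells gave 429 and 422, against 675 and 898.5 in fresh DN cells. Every cultured array lay below every fresh one, which was so for 621 tested probe sets, 10.1%.

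The intensity of Tgfb1 averaged 441 ± 65.5 in cultured and 876 ± 184.9 in fresh cells (SD, n = 6 arrays each). The limma mean culture effect was -0.97 ± 0.18 (SE) on the log2 scale, 1.96-fold lower in cultured cells, with an adjusted p of 0.00173. The exact permutation within subsets gave a two-sided p of 0.00926, the smallest possible. Tgfb1 was lower within each experiment, with limma log2 differences of -1.05 (adjusted p 0.0148) in experiment 1 and -0.90 (adjusted p 0.0322) in experiment 2. The call held in each of the 12 fits without 1 array. Of all tested probe sets, 15.5% had a mean culture effect at least as far below 0. Markers of macrophages and monocytes, which also express Tgfb1, moved with culture as well. Of 9 tested, 5 fell (Csf1r, Lyz2, C1qa, C1qc and Adgre1), 1 rose (Cd14), and the median log2 difference was -1.34. The summed intensity of the 11 on the array was 2207 to 4348 in cultured and 2412 to 5062 in fresh cells, overlapping over the 12 arrays. Marco and Mertk were never above the floor. The sum was higher in culture in CD8+ cells, where Cd14 alone read 2226 and 2238 in cultured and 260.6 and 137.7 in fresh cells. The part of macrophages and monocytes in the Tgfb1 values was not tested.

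In CD4+ cells the Tgfb1 difference was -1.002, with a limma adjusted p of 0.0447. It was the 1 call among the 5 tested cytokine probe sets there, against 18.4% of all tested probe sets (10.9% lower). Leaving out any one of 10 of the 12 arrays ended that call, which stayed without either fresh CD8+ array, and the adjusted p ran from 0.0322 to 0.223. In CD8+ cells the limma difference was -1.05 (adjusted p 0.0630) and in DN cells -0.87 (adjusted p 0.0987). In DN cells 0 of the 5 cytokine probe sets passed with limma, against 9.9% of all tested probe sets, and Il6 and Tgfb1 had unadjusted p of 0.0181 and 0.0169. The culture effects on Tgfb1 differed between subsets by 0.18 or less on the log2 scale, with limma adjusted p of 0.974 to 0.999.

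Il15 encodes interleukin-15 and Il15ra the chain that presents it. The Il15 probe set (161037_at, gene at chr8:82331624-82403252) read 93.3 and 122 in cultured CD8+ cells, against 91.2 and 28.8 in fresh CD8+ cells. Cultured CD4+ cells gave 34.8 and 12.8, against 12.8 and 5.5 in fresh CD4+ cells. Cultured DN cells gave 20.1 and 22.6, against 5.3 and 4.3 in fresh DN cells. Both cultured CD8+ arrays were above the floor, the other 10 arrays were at or below it, and on cultured CD8+ experiment 1 the margin was small. With each array's own noise as the measure, 1 array passed.

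Against cultured CD4+ and DN cells, cultured CD8+ cells did not pass for Il15, with limma adjusted p of 0.278 and 0.387, and since Il15 entered the test through these arrays no order of the subsets is drawn from it. The limma mean culture effect was 0.58 ± 0.37 (SE), with an adjusted p of 0.232, and cultured arrays were higher in 6 of 6 same-numbered pairs. The exact permutation within subsets gave a two-sided p of 0.0185 for the same difference, unadjusted. The Il15ra probe set (161023_at, gene at chr2:11705172-11733985) ranged from -175.3 to 153.6 with a median of -16.3. Its 1 array above the floor was cultured CD8+ experiment 1, and most of its values were below 0, so no order of the groups can be read from it.

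Il10 had a pair of probe sets. The probe set 100319_at (gene at chr1:131019845-131024970) read 318.8 and 43.6 in cultured CD8+ cells, against 42.8 and -1.2 in fresh CD8+ cells. Cultured CD4+ cells gave 75.0 and 36.2, against 9.9 and 18.7 in fresh CD4+ cells. Cultured DN cells gave 26.0 and -3.8, against 13.4 and -0.4 in fresh DN cells. A single array, cultured CD8+ experiment 1, was above the floor, and the exact permutation within subsets gave a two-sided p of 0.0648.

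The Il10 control probe set read 168.0 and 59.4 in cultured CD8+ cells, 112.0 and 38.8 in cultured CD4+ cells and 65.4 and 31.3 in cultured DN cells, against 0.7 to 22.4 on the 6 fresh arrays. All 6 cultured arrays were above all 6 fresh ones, as they were for 473 tested probe sets, 7.68%. Of the cultured arrays 2, both of experiment 1, were above the floor. The noise was 42.3 to 107.9 on the cultured arrays and 26.2 to 50.5 on the fresh ones. Its part in this order was not tested. Cultured CD4+ experiment 1 was the noisiest array, and with each array's own noise as the measure the cultured CD8+ array alone passed. The exact permutation within subsets gave a two-sided p of 0.00926 for this probe set, unadjusted. On cultured CD8+ experiment 1 both Il10 probe sets were above the floor.

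Il12a, which encodes the p35 chain, stayed between 4.7 and 45.0 on all 12 arrays (100773_at, gene at chr3:68690644-68698550), with a median of 21.6. The exact permutation within subsets gave a two-sided p of 0.407. The second Ebi3 probe set (162357_at) stayed between -36.3 and 81.7, below the floor on the 12 arrays on which the first was above it. It was higher in culture in 6 of 6 same-numbered pairs. The exact permutation within subsets gave a two-sided p of 0.0463 for this probe set, unadjusted. Its values lay near the noise, so they cannot be set against those of the first.

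**Figure D3:**
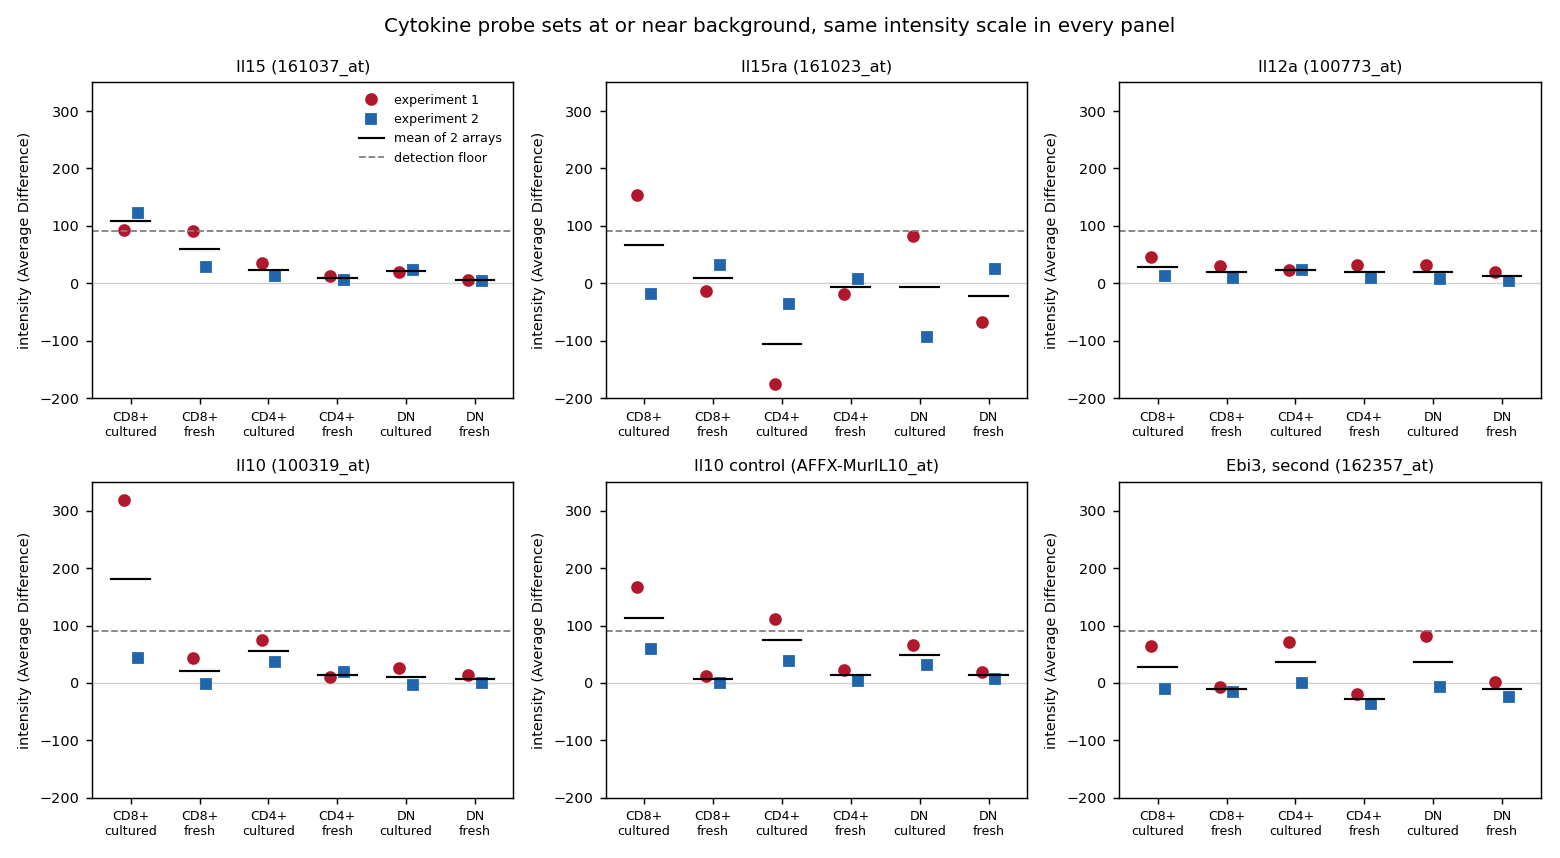
Intensity (Average Difference) on each of the 12 arrays of Il15, the 4 probe sets near background and the Il10 control probe set, with the cultured group left of the fresh group in each subset, a point for each experiment and the detection floor of 91.4 as a line. Il12a and the second Ebi3 probe set stay below the floor on all 12 arrays, Il10 and Il15ra pass it once each, on cultured CD8+ experiment 1, Il15 passes it on both cultured CD8+ arrays, and the control probe set passes it on 2 arrays.

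The second comparison set the subsets against each other. Between fresh subsets, 0 of the 5 tested cytokine probe sets passed in limma for CD8+ minus CD4+ cells, where 1.98% of all tested probe sets did. The same count was 0 for CD8+ minus DN cells, against 1.43%, and for DN minus CD4+ cells, against 0%. Unadjusted p was under 0.05 for none of the 5 in these 3 differences. Between cultured subsets 0 of the 5 passed as well, against 2.29% for CD8+ minus CD4+ cells, 1.3% for CD8+ minus DN cells and 0% for DN minus CD4+ cells. Unadjusted p was under 0.05 for Il15 alone, in CD8+ minus CD4+ and CD8+ minus DN cells, and it had entered the test through the cultured CD8+ arrays.

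For Il12b in fresh cells, CD8+ exceeded CD4+ cells by 3.18 ± 1.59 and DN cells by 2.85 ± 1.59 (SE) on the log2 scale, at least 1.35-fold in both cases, with limma adjusted p of 0.525 and 0.649. Both fresh CD8+ arrays lay above the 4 arrays of fresh CD4+ and DN cells, which was so for 657 tested probe sets, 10.7%. The CD8+ minus CD4+ difference had a limma adjusted p of 0.0327 without the 3 cultured arrays of experiment 1, a fit in which the spread comes from the fresh arrays alone. In cultured cells, CD8+ exceeded CD4+ by 2.18 and DN by 2.34 in Il12b, with limma adjusted p of 0.561 and 0.710.

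For Il6 in cultured cells, both CD8+ arrays lay above the 4 arrays of CD4+ and DN cells, which was so for 728 tested probe sets, 11.8%. The differences were 1.5 ± 0.87 and 1.52 ± 0.87 (SE), with limma adjusted p of 0.449 and 0.612. The subsets lay far apart in experiment 2, where cultured CD8+, CD4+ and DN cells read 416, 45.3 and 45.3, whereas in experiment 1 they read 327, 311 and 305. Ebi3 and Tgfb1 overlapped between cultured subsets, with limma differences of 0.98 or less and 0.18 or less in size.

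In order of mean intensity, Il6 ran from cultured CD8+ (371.7) to cultured CD4+ (178) and cultured DN cells (175), followed by the fresh groups at 9.65 or less, and neighbours overlapped except between cultured CD8+ and cultured CD4+ cells and between cultured DN cells and the highest fresh group. Il12b ran from cultured CD8+ (785) to cultured DN (485), cultured CD4+ (160) and fresh CD8+ cells (127), all overlapping with their neighbour, and then to fresh DN and CD4+ cells below 0. For Ebi3 the cultured groups led, with CD8+ first at 1442, and every group overlapped with the next. Tgfb1 had the fresh groups first, CD8+ at 1000.4, and only the step from fresh DN (787) to cultured CD8+ cells (478) was free of overlap.

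For the 3 probe sets called in at least 1 comparison, the most similar profiles over the 12 arrays were sought by Pearson correlation of log values. These arrays share their subsets and culture states, so the values are descriptions. Il6 was most like Cxcl2 (r = 0.965), a neutrophil-attracting chemokine, Id1 (0.965), an inhibitor of basic helix-loop-helix factors, and Bcl2l1 (0.953), a survival factor. Il12b was most like Cd200 (0.921), an inhibitory surface ligand, Ly75 (0.891), the endocytic receptor DEC-205 of CD8+ dendritic cells, and St3gal1 (0.889), a sialyltransferase. Tgfb1 was most like Gnai2 (0.969), a G protein subunit, Tmem134 (0.949) and Pradc1 (0.942). Among the cytokines themselves, r was 0.812 between Il12b and Il6, 0.729 between Il12b and Ebi3, 0.748 between Il6 and Ebi3 and -0.668 between Tgfb1 and Il6.

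The partners of these cytokines were described from lists of related genes, whose counts for the mean culture effect stand against 17% higher and 22.3% lower among all tested probe sets. Of 12 related cytokines on the array, 1 was tested, Il18, an inducer of interferon-gamma, which fell by 2.23 on the log2 scale over the subsets, at least 1.55-fold (limma adjusted p 0.00267). Of 16 receptor chains on the array, 7 were tested, 1 rose and 3 fell, with a median log2 difference of -0.64. Il7r rose by 2.43, whereas Eng, a TGF-beta co-receptor, fell by 1.69, Il6ra, the IL-6 binding chain, fell by 1.28 and Il10ra fell by 0.96 (limma adjusted p of 9.79e-05, 0.00192, 0.00267 and 0.0477). Fresh Il7r and cultured Il6ra were at or below the floor on all 6 arrays, so the bounds were at least 3.27-fold higher and at least 1.48-fold lower in cultured cells. Neither IL-12 receptor chain (Il12rb1, Il12rb2) nor any of Tgfbr1, Tgfbr2 and Tgfbr3 was ever above the floor.

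Of 12 tested JAK-STAT genes, 8 rose and 1 fell after culture (17% and 22.3% of all tested probe sets), with a median of 1.26. Stat4, which acts downstream of the IL-12 receptor, rose by 2.92, Stat5a, which acts downstream of IL-2 family receptors, by 2.59, Socs1, a feedback inhibitor, by 2.80, and Stat3, which acts downstream of IL-6, by 1.33, while Jak3 fell by 1.94 (limma adjusted p at most 0.00122). Of 15 tested genes of TGF-beta activation and SMAD signalling, 5 rose and 5 fell, with a median of 0.63. Itgav, an integrin chain that can release active TGF-beta, rose by 2.24 and Tgif1, a corepressor of SMADs, by 2.22, while Mmp9, a protease that can release latent TGF-beta, fell by 2.92 (at least 1.12-fold, since cultured arrays were at or below the floor), Tgfbi, a TGF-beta-induced gene, fell by 1.45 and Smad1 fell by 1.21 (limma adjusted p at most 0.000517). By subset, Mmp9 and Tgfbi were called lower in CD4+ cells (-4.51 and -2.31) and DN cells (-4.08 and -1.69), and not in CD8+ cells. In fresh cells, Mmp9 was already lower in CD8+ than in CD4+ and DN cells (-4.8 and -4.5). Mmp9 was above the floor on 4 fresh arrays and on no cultured array. Its log2 values by subset thus include readings at or below the floor and give no fold. Of 25 tested regulators of cytokine transcription, 9 rose and 10 fell, with a median of -0.13. Crem rose by 2.97 (at least 4.86-fold) and Prdm1 by 2.06 (at least 1.47-fold), both being at or below the floor on all fresh arrays, while Jun fell by 2.57, Fos fell by 1.48 and Batf3 fell by 1.92 (limma adjusted p at most 0.000205).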

How the data were processed

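Values were read from the deposited series table of 12 arrays. Per the labels, they are Average Difference intensities of each probe set, scaled globally by the authors. The program is not given in the sources used here. Such scaling fixes each array's overall level, so differences are relative to it, and 0 columns of the table were left unused. Of 12488 probe sets, 66 control probe sets were left out of tests. The platform annotation gave 1 symbol to 10833 of the other 12422, several to 396 and none to 1193, and RefSeq kept the symbols of all 8 cytokine genes.

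Each intensity x was turned into log2((x + sqrt(x² + c²)) / 2), a generalised log2 value that exists below 0 too. The offset c was 45.69, the median noise (root mean square of an array's negative values) of the 12 arrays. The scale understates changes of dim probe sets, and values below 0 can inflate them. Where both arrays of a group were at or below the floor (91.37), only a bound can be given. Beside the log2 difference a fold is then given as "at least N-fold", the brighter group's log2 mean against the dimmer group's mean of the floor or its own value, whichever was higher. The 6159 probe sets that passed the floor on 2 or more arrays were fitted with limma 3.58.1 in R 4.3.3, 1 mean per group over all 12 arrays (6 residual degrees of freedom, median prior 5.09), with eBayes using trend and robust estimation and Benjamini-Hochberg adjustment over the 6159. A probe set was called at an adjusted p under 0.05. Single values were also tested by exact permutation of fresh and cultured within subsets. The number of arrays, 2 per group, limits the precision.

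Same-numbered arrays deviated together, with correlations of 0.106 to 0.444 over the 15 pairs of groups. The noise was higher in experiment 1 in each group, and its part in these correlations was not tested. They therefore do not show that the experiment numbers in the titles pair the arrays. The main fit and the permutation within subsets took no account of that number, and a fit with it as a block was an alternative. Others were the offset, a hard floor, the filter, quantile normalization, eBayes without trend and fits without arrays, in which a group left with 1 array was assumed to vary like the others. The within-experiment comparison, in which the 3 subsets stood in for replicates, was added after the data were seen. So was the fit without the cultured arrays of experiment 1. The fit was tested on simulated data. The cytokines, gene lists and tests were chosen with earlier results of these data known. Named beside the cytokines were called list genes, at most 5 per list, lowest adjusted p first, and the 3 genes most correlated with each called cytokine probe set. A listed gene was represented by its probe set of highest mean. Tables and figures used Python 3.11.15, pandas 2.3.3, numpy 2.4.6 and matplotlib 3.10.9.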

Additional observations from a re-analysis of the deposited data

Results flagged for a closer look

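The culture effect on Ebi3 (93608_at) differed between the experiments by 2.69 ± 0.33 (SE) on the log2 scale, with a limma adjusted p of 0.0435. Cultured cells were higher in 3 of 3 subsets in experiment 1 and in 1 of 3 in experiment 2. The comparison was added after the values were seen, and in it the 3 subsets stood in for replicates.

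The Il10 control probe set, which entered no test, read 168 in cultured CD8+ and 112 in cultured CD4+ cells of experiment 1, both above the floor, against at most 22.4 on the fresh arrays. With each array's own noise as the measure, the cultured CD4+ value was not above background. On the same arrays the annotated Il10 probe set read 318.8 and 75.0.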

How the results depend on the processing

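The mean culture effects of Il6 and Tgfb1 kept their direction and their call in every alternative run, with log2 values of 1.26 to 3.76 and -1.07 to -0.88. Il12b kept its direction but lost its call in 16 of 25 alternatives, among them the smaller offset (limma adjusted p 0.0528), the hard floor (0.0611), no filter (0.0732), eBayes without trend (0.0589) and leaving out the 3 arrays of raised Gapdh ratio (0.12). For Il15, quantile normalization gave a limma adjusted p of 0.0481. Ebi3 turned to -0.0205 without those 3 arrays, -0.13 without the 3 cultured arrays of experiment 1 and -0.46 within experiment 2. Without the raised-Gapdh arrays or without those of experiment 1, Ebi3 was -0.73 in CD4+ and -0.57 in DN cells and Il12b was -0.54 in DN cells. In the fits without 1 array these ranged from -0.73 to 1.58, -0.57 to 1.515 and -0.54 to 5.78.

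Of the 5 tested cytokine probe sets, those called for culture in CD4+ cells numbered 2 with the smaller offset, quantile normalization or the replicate block, and 0 with no filter, eBayes without trend or without the 3 cultured arrays of experiment 1. In CD8+ cells they numbered 0 with the hard floor or the 6-array filter, which left Il6 out. In each subset they numbered 0 to 2 without 1 array. Without the raised-Gapdh arrays, which leaves cultured CD4+ and DN cells 1 array each, both of experiment 2, so that subset and experiment cannot be told apart, 1 passed for cultured CD8+ minus CD4+ cells (Il6) and 2 for cultured CD8+ minus DN cells (Il6 and Il12b), and 1 passed for fresh CD8+ minus CD4+ cells without the 3 cultured arrays of experiment 1 (Il12b). The replicate block brought Il6 in CD4+ cells to a limma adjusted p of 0.0344 and changed no other call of a culture effect on these probe sets. Over the whole table, 2420 probe sets were called for the mean culture effect, 1699 to 3131 without 1 array and 1623 to 2953 otherwise. With each array's own noise as floor, 6 cytokine probe sets in place of 4 were above it on fewer than 2 arrays. Intensities near the noise give no order of groups for Il12a, Il10, Il15ra or Il15.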
